A study of Mus musculus with 3 samples.

Results

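The transcripts described here encode 10 protease inhibitors, or relatives of protease inhibitors, of surface epithelia: Slpi, Wfdc18, Wfdc5, Wfdc12 and Wfdc2 with the WAP domain, the clade B serpins Serpinb3a, Serpinb5 and Serpinb2, and the cystatin family members Stfa3 and Cst6. The genes were taken by name, and each was read through the array probe sets that the platform annotation pairs with that 1 gene symbol. This gave 13 probe sets for the 10 genes, of 34945 single-gene probe sets for 18193 genes in all. The members were chosen by family and on measured values, the higher Slpi and lower Wfdc18 signal in these uncv null samples, so the differences from wild type are given as a description, with no test.

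RNA came from dorsal skin of 4-day-old female BALB/cA mice. The wild type group (uncv +/+) had 1 array and the uncv null group (uncv -/-) had 2, called null 1 and null 2 here, each of a sister from uncv heterozygous parents. Uncovered is a spontaneous mutation with sparse hair, later mapped to Rhbdf2, the gene of the inactive rhomboid iRhom2. The uncv null samples are numbered as separate samples and described as mice, so their spread may hold differences between animals as well as technical ones. Every uncv null value is set against the same wild type array, and all 3 samples share strain, sex and age. Whole skin was sampled, so fewer cells of a type and less RNA per cell cannot be told apart.

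Proteases split the junctions between corneocytes, process filaggrin and activate cytokines, and inhibitors hold them in check. WAP domain proteins are small, secreted and rich in disulphide bonds, and several block serine proteases and act against microbes. Clade B serpins lack a classical signal peptide and act largely inside cells, trapping a protease that cleaves their reactive loop. Stefins and cystatins block cysteine proteases such as cathepsins, inside and outside the cell respectively.

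Of the 3 arrays, wild type correlated with null 1 at r = 0.972 and with null 2 at r = 0.958, and the null arrays with each other at r = 0.961 (Pearson, across 13559 tested probe sets, which are not independent replicates). The mean of the 18S ribosomal RNA control probe sets was 3.59 in wild type, 7.93 in null 1 and 4.26 in null 2 on the log2 scale, so null 1 stood apart in this control. Rhbdf2 itself had 5.83, 6.29 and 6.49 in the same order, and the place of the mutation against this probe set was not looked at. Of 12 interfollicular keratinocyte markers, 11 passed the filter: Krt14 lay at 11.49, 11.58 and 12.03 and Krt10 at 12.81, 12.73 and 12.86, while Krt77 was dimmer at 5.95, 5.90 and 6.73 and Krt2, at 3.32, 4.92 and 3.26, was below the filter. By limma with Benjamini-Hochberg adjustment, 0 of 8456 tested genes (0%) passed an adjusted p of 0.05, and the smallest adjusted p was 0.9996. An unadjusted p under 0.05 was reached by 245 genes (2.90%), 134 of them higher in uncv null skin.

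The sequences upstream of Slpi and Wfdc18 are shown because these WAP genes differed most among the members, in opposite directions. Each runs for 250 bases up to the annotated start, from RefSeq, 5′ to 3′ on the gene's strand. Capitals mark matches to 3 motifs searched on both strands: AP-1 as TGANTCA, STAT as TTCNNNGAA and C/EBP as TTGCNNAA, or TTNNGCAA on the other strand.
Slpi, GRCm38.p6, chr2:164356508-164356757, strand minus: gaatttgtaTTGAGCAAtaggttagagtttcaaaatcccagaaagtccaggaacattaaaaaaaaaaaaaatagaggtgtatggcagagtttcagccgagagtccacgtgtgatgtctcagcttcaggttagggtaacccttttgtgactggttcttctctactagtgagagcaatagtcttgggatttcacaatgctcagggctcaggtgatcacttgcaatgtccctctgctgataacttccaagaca
Wfdc18, GRCm38.p6, chr11:83708754-83709003, strand plus: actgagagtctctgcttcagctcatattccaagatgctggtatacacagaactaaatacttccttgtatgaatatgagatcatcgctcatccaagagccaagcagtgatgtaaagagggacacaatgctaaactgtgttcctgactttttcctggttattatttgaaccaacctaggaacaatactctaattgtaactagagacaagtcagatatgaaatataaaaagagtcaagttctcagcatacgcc
Upstream of Slpi there was 1 match, the C/EBP letters TTGAGCAA, whose first base lies 241 bases before the start. The Wfdc18 window held none of the 3 motifs in these letters.

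RefSeq windows from 250 bases before to 50 after a start were held for 8 of the members, in 10 windows, since Wfdc2 and Serpinb2 have overlapping pairs. A C/EBP match was in 4 of these 10 windows, beside 10.8% of all 32851 windows, an AP-1 match in 4 beside 7.81%, and a STAT match in 2 beside 8.30%. Both Serpinb2 windows held all 3 motifs, and they share sequence, so the same AP-1 and STAT letters are counted in both. The AP-1 letters were TGAATCA in Serpinb5 and Serpinb2 and TGAGTCA in Stfa3. These letter matches are descriptions, not binding sites.

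Among the secreted WAP inhibitors, Slpi encodes secretory leukocyte protease inhibitor, which blocks neutrophil elastase and cathepsin G. Its log2 level was 4.59 in wild type, 6.89 in null 1 and 8.45 in null 2. Both null arrays lay above wild type, and they differed from each other by 1.56. The difference from wild type was 2.30 in null 1, which is 4.93-fold, and 3.86 in null 2, which is 14.5-fold. The mean difference was 3.08 ± 0.62 on the log2 scale (limma's moderated SE, 1 against 2 arrays), or 8.46-fold, and ranked 3rd from the highest of 8456 tested genes. With a wild type level below the filter of 5, Slpi entered this ranking only through the null arrays, so the rank is a description. In wild type Slpi was dim, yet above that array's median over all probe sets of 3.70 and above 3.65, the top value that the Y-linked genes Kdm5d, Eif2s3y and Uty reached in these female mice. BioB-3, a dim hybridisation control with a wild type level of 4.72, exceeded that level by 0.89 on null 1 and by 0.84 on null 2, which is less than the Slpi difference on either array. The mean over 18 hybridisation control probe sets was higher than in wild type by 0.70 on null 1 and 0.43 on null 2. Whether a part of the Slpi difference, or of any other, carries such an offset was not tested.

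Wfdc18, also known as Expi or WDNM1, is a small WAP protein first described from mammary gland. Its level was 8.02 in wild type, 6.62 in null 1 and 5.29 in null 2. Both null arrays lay below wild type, null 2 by more. The differences were -1.40 and -2.74, which is 2.64-fold and 6.67-fold lower, and the mean was -2.07 ± 0.55 (limma's moderated SE), 4th from the lowest of 8456 genes. Its only probe set has the suffix that Affymetrix gives to probes shared by several transcripts, so near-identical transcripts may add to it. Slpi and Wfdc18 were therefore displaced from wild type in opposite directions, and in both the null 2 array was the farther one.

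The other WAP members were close to wild type or dim. Wfdc5, a WAP gene of the epidermis, was at 6.21 in wild type, 5.87 in null 1 and 6.81 in null 2. The null arrays lay on either side of wild type, and the mean difference of 0.13 ± 0.43 was smaller than its error. Wfdc12 had levels of 3.48, 4.05 and 4.02, and Wfdc2, a WAP gene of airway and reproductive tract epithelium, 3.94, 4.51 and 3.26, in the order wild type, null 1, null 2. Both were below the minimum mean of 5 over the 3 arrays that a probe set needed to be tested, and near the array medians of 3.65 to 3.70, so no difference is read from them.

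**Figure D1:**
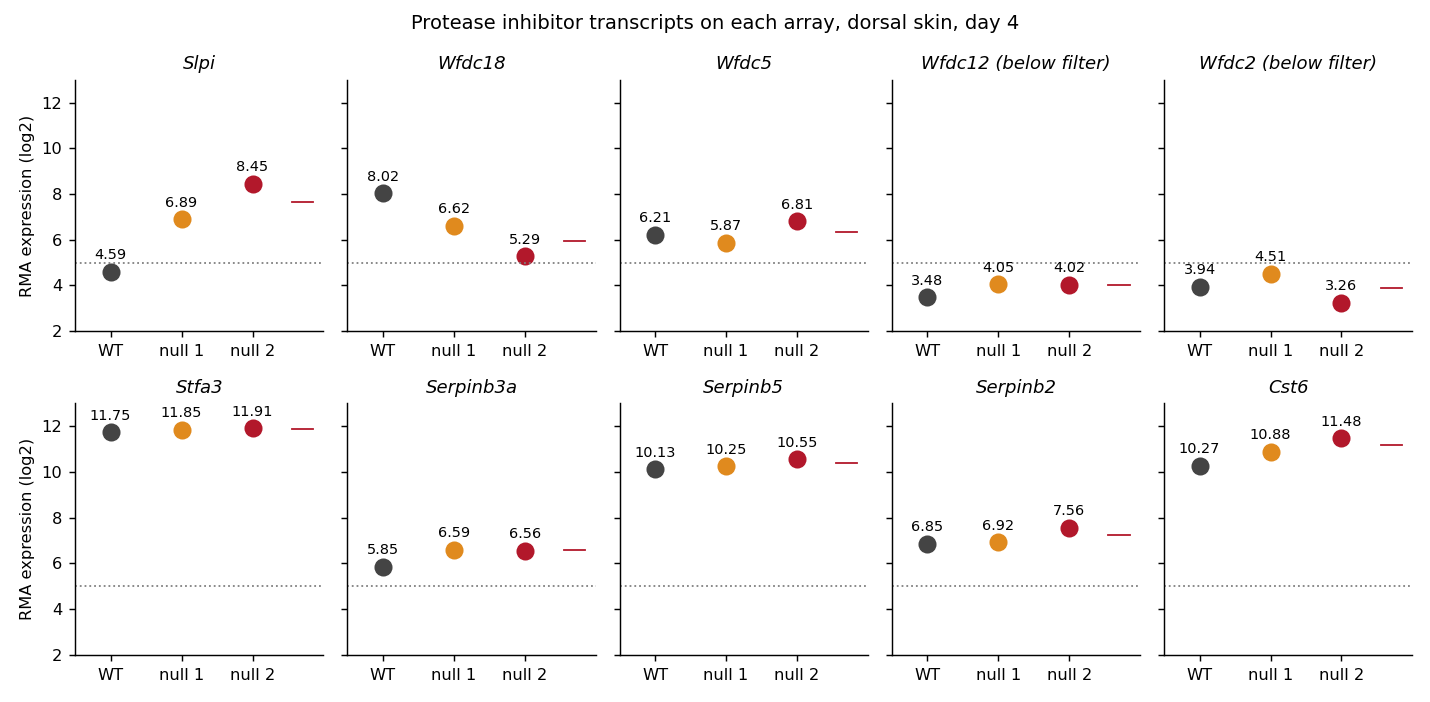
RMA expression (log2, vertical axis) of the 10 protease inhibitor genes on the wild type array (grey), null 1 (orange) and null 2 (red), 1 point per array, with a short red line at the uncv null mean and a dotted line at the filter of 5. Slpi goes from 4.59 in wild type to 6.89 and 8.45 and Wfdc18 from 8.02 to 6.62 and 5.29, while Stfa3 stays between 11.75 and 11.91.

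Among the serpins, Serpinb3a belongs to the squamous cell carcinoma antigen group, whose members block papain-like or chymotrypsin-like proteases. It had 5.85 in wild type, 6.59 in null 1 and 6.56 in null 2. The null arrays were within 0.03 of each other and both lay above wild type, by a mean of 0.73 ± 0.26 (1.66-fold), which ranked 160th from the highest. On both arrays this was less than the offset of the BioB-3 control. Its probe set is of the Affymetrix kind that can cross-hybridise, and the near-identical copies Serpinb3b, Serpinb3c and Serpinb3d had no single-gene probe set of their own, so the value may be shared among them.

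Serpinb5 encodes maspin, a serpin of basal and luminal epithelial cells that is not known to inhibit a protease. It was measured by 4 probe sets. The brightest gave 10.13, 10.25 and 10.55 in wild type, null 1 and null 2, a mean difference of 0.28 ± 0.28. The other 3 differed from wild type by means of 0.27, 0.51 and 0.29. All 4 lay above wild type on both null arrays, but these probe sets read the same RNA and are not replicates.

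Serpinb2, plasminogen activator inhibitor type 2, blocks urokinase. It lay at 6.85 in wild type, 6.92 in null 1 and 7.56 in null 2. Here only null 2 stood off wild type, by 0.71 against 0.07 in null 1, and the mean difference was 0.39 ± 0.35. Its protease partner Plau, urokinase, had a like split: 6.41 in wild type, 6.34 in null 1 and 7.21 in null 2.

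Among the cysteine protease inhibitors, Cst6 encodes cystatin E/M, which blocks legumain and cathepsins L and V in the granular layer and the hair follicle. Its loss causes the ichq mouse phenotype of abnormal cornification. Its levels were 10.27 in wild type, 10.88 in null 1 and 11.48 in null 2. Both null arrays were higher, by 0.61 and 1.21, and the mean difference was 0.91 ± 0.34 (1.88-fold), 73rd from the highest. The null 1 difference was smaller than the BioB-3 offset on that array, and the null 2 difference larger. The transcripts of its targets lay nearer to wild type: legumain (Lgmn) was at 6.56, 6.37 and 6.87, and cathepsin L (Ctsl) at 10.02, 10.11 and 10.17.

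Stfa3, a stefin A of the cytosol that blocks cathepsins, was bright and even, at 11.75, 11.85 and 11.91 in wild type, null 1 and null 2. The mean difference was 0.13 ± 0.26. Stefin A genes are close copies of each other, so its probe set may read more than 1 of them.

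Of the 8 members that passed the filter, 6 lay above wild type in both null arrays, 1 below and 1 on either side. Over all tested genes, 38.8% lay above in both and 26.4% below. The 2-fold rule, at least 1 log2 unit from wild type on both null arrays in the same direction, took in Slpi among the higher genes (19 of 8456, 0.225%) and Wfdc18 among the lower ones (25 of 8456, 0.296%). Since the members were chosen with this contrast known, nothing is read from these counts. In 7 of the 8, all but Serpinb3a, null 2 was the array with the greater distance from wild type, and 59.7% of all tested genes did so.

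**Figure D2:**
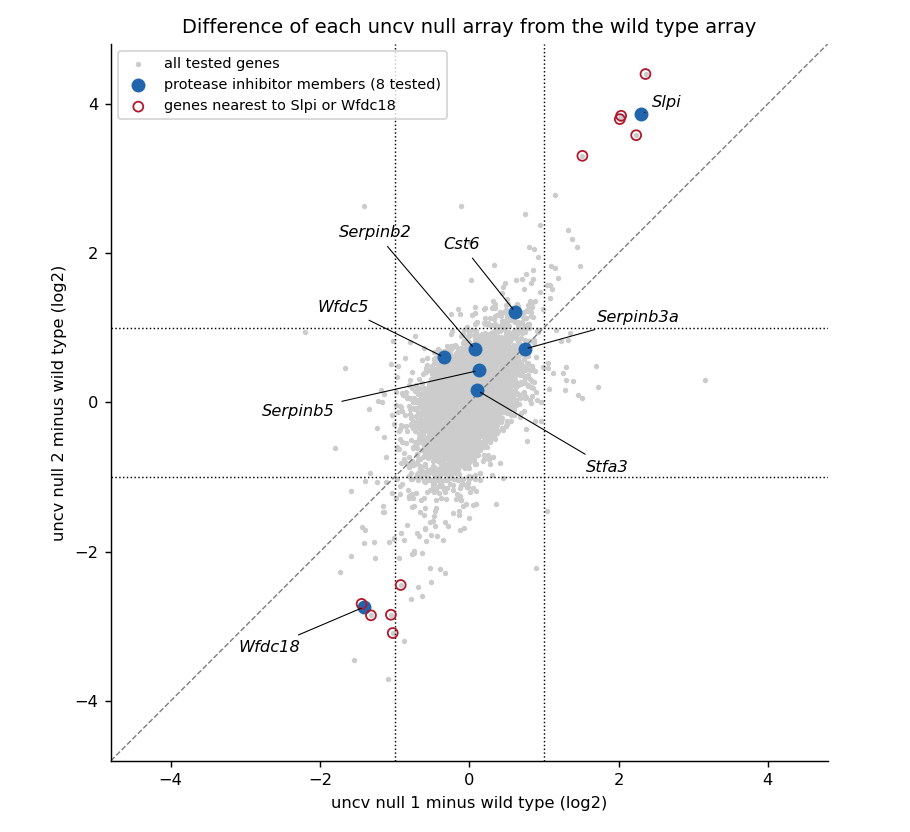
Difference from wild type (log2) on null 1 (horizontal axis) and null 2 (vertical axis) for 8456 tested genes (grey), the 8 tested members (blue) and the genes nearest to Slpi or Wfdc18 (red rings), with dotted lines at 1 log2 unit and a dashed line of equality. Slpi lies far out at 2.30 and 3.86 and Wfdc18 at -1.40 and -2.74, while the other 6 members lie within or at the edge of the main cloud, and both axes share the wild type array.

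Several members are neighbours on the chromosome, in the gene order of RefSeq GRCm38.p6. Wfdc18 lies between the WAP genes Wfdc17 and Wfdc21. Wfdc17, a WAP gene known from activated macrophages, had 4.51 in wild type, 4.93 in null 1 and 5.67 in null 2. Wfdc21 had 9.47, 9.51 and 9.97. Wfdc21 exceeded wild type by 0.045 on null 1 and 0.50 on null 2, less than the BioB-3 offset on either array. The mean differences were 0.79 ± 0.37 for Wfdc17 and 0.27 ± 0.31 for Wfdc21. Wfdc17 was below the filter of 5 in wild type and null 1 and passed it only through null 2, so neither its side nor its p is read. No contrast with Wfdc18 is drawn from these 2 genes. By limma Wfdc21 did not pass (adjusted p = 0.9996).

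Slpi sits with Wfdc5, Wfdc12 and Wfdc2 in the second WAP cluster. From Wfdc5 to Wfdc3 this stretch holds 32 protein-coding genes, of which 22 had a single-gene probe set and 5 passed the filter. Besides Slpi and Wfdc5 these were Sdc4, a syndecan, Sys1 and Dbndd2. Sdc4 was higher by 0.84 in null 1 and 0.49 in null 2, and the genes next to Slpi, Svs5 and Matn4, were below the filter, at 3.14 and 4.69 in wild type. Among the 22 measured genes of this stretch, Slpi had the largest difference on both arrays. Slpi was chosen for its rise and most of the others were below the filter, so nothing is read from this.

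The serpin members lie in a row of 12 clade B serpins from Serpinb5 to Serpinb8, of which 6 were tested. Serpinb7, Serpinb8 and the members Serpinb5, Serpinb3a and Serpinb2 were above wild type on both null arrays, with means between 0.28 and 0.73. Serpinb12 was below on both, at 8.84 in wild type against 8.66 and 8.62. In this row the arrays differed by less than 1 log2 unit for every tested gene.

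**Figure D3:**
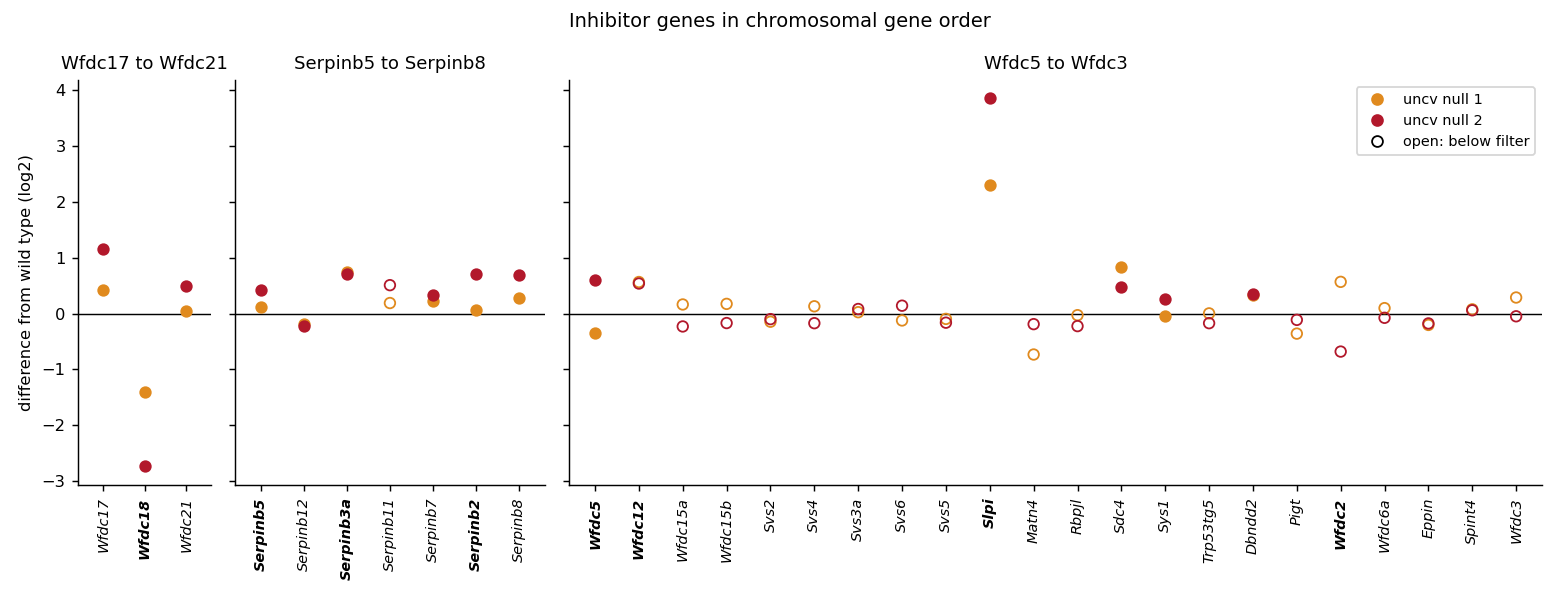
Difference from wild type (log2, vertical axis) on null 1 (orange) and null 2 (red) for genes in chromosomal order within 3 inhibitor clusters, leaving out genes without a single-gene probe set, with members in bold and open circles for genes below the filter. Slpi at 2.30 and 3.86 and Wfdc18 at -1.40 and -2.74 stand apart from their neighbours, and the serpin row lies within 1 log2 unit of wild type.

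The wider inhibitor families were read from gene lists, leaving out the members. Beside each list stand the shares over all tested genes given above and the median difference over all tested genes of 0.04. By limma 0 genes of any of these lists passed the adjusted threshold.

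For WAP domain genes, 2 of the 11 with a probe set passed the filter, Wfdc17 and Wfdc21. Of 15 other clade B serpins, 5 were tested: 3 lay above wild type in both null arrays, 1 below and 1 on either side, with a median of 0.04. Serpinb8 was at 0.49 ± 0.30, Serpinb7, a serpin of the upper epidermis, at 0.28 ± 0.26, Serpinb12 at -0.20 ± 0.26 and Serpinb1a, an inhibitor of neutrophil proteases, at 0.04 ± 0.26. Of 13 other cystatins and stefins, 4 were tested, 2 of them above wild type in both arrays and 2 on either side, with a median of 0.16. Cstb, stefin B, was at 0.38 ± 0.26, Stfa2l1 at 0.27 ± 0.26, Csta1 at 0.06 ± 0.27 and Cst3, cystatin C, at 0.05 ± 0.26. An unadjusted p under 0.05 was reached by 0 genes of these 3 lists.

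Of 22 Kazal, Kunitz and other serine protease inhibitors, 8 were tested, with 3 above wild type in both arrays, 3 below and 2 on either side. The list's median was -0.02 in null 1 and 0.12 in null 2. Serpina3n, an acute phase serpin, had 3.81 in wild type, 5.83 in null 1 and 7.61 in null 2, and its wild type value was close to the array median. Serping1, the C1 inhibitor, was at 0.60 ± 0.26, Serpinf1, pigment epithelium-derived factor, at -0.59 ± 0.34 and Serpinh1, the collagen chaperone HSP47, at -0.71 ± 0.26. Serpinh1 and Serpina3n had an unadjusted p under 0.05, but Serpina3n passed the filter only through the null arrays, so its p is not read. Spink5, the LEKTI inhibitor of epidermal kallikreins, was even across the arrays at 7.99, 8.16 and 7.96.

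The list of target proteases was drawn broadly: it also holds Plaur, the urokinase receptor, and proteases such as Ctsd and Ctsa that are not known targets of these families. Of its 36 genes with a probe set, 25 were tested: 14 lay above wild type in both null arrays, 4 below and 7 on either side, and the median was 0.24 (0.13 in null 1 and 0.40 in null 2). Klk6, a trypsin-like kallikrein, had 6.68 in wild type, 7.60 in null 1 and 8.63 in null 2, a mean difference of 1.43 ± 0.45. Tmprss4, a membrane serine protease, was at 0.93 ± 0.29 and Klk7, the chymotrypsin-like kallikrein of the horny layer, at 0.67 ± 0.37. Tpsb2, a mast cell tryptase, was lower, at -0.78 ± 0.29. Klk6, Tmprss4 and Tpsb2 were the 3 with an unadjusted p under 0.05, and limma passed none after adjustment (adjusted p = 0.9996).

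**Figure D4:**
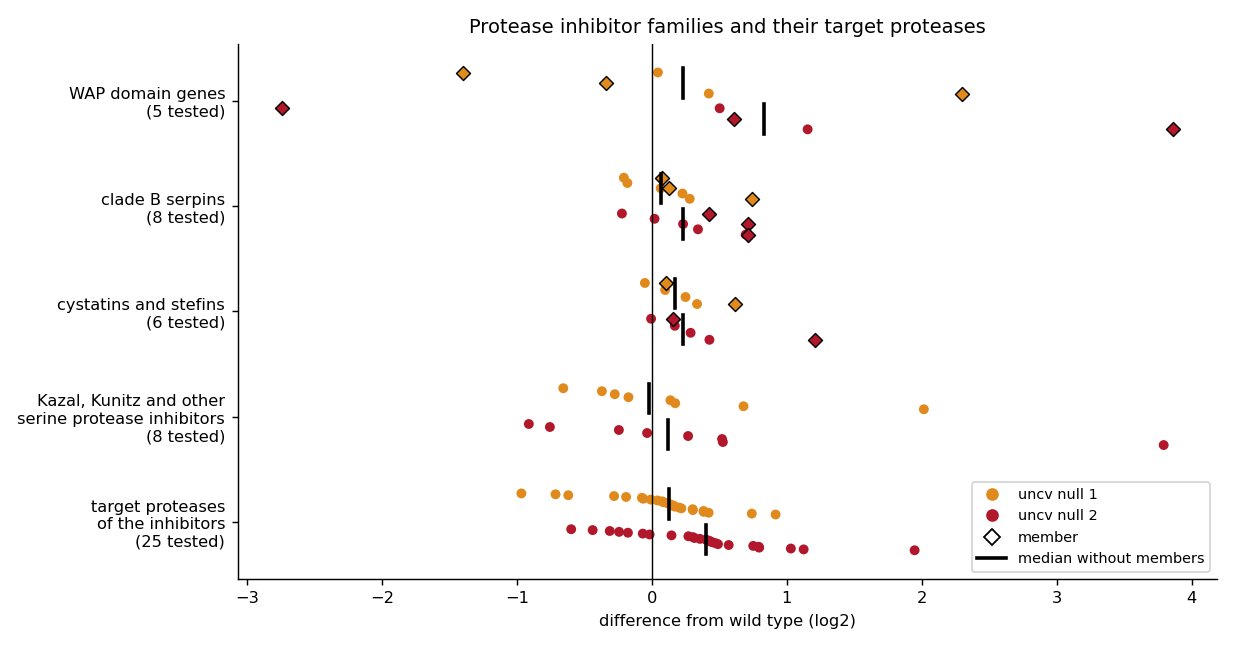
Difference from wild type (log2, horizontal axis) of each tested gene on null 1 (orange) and null 2 (red) in 4 inhibitor lists and the list of target proteases, with diamonds for members and black bars at the median without members. Medians lie between -0.02 and 0.83. The 0.83 is the null 2 median of only 2 WAP genes, of which Wfdc17 passed the filter only through null 2. The WAP list holds both extremes among the members, Slpi and Wfdc18.

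Transcripts of the neutrophil proteases that Slpi blocks, elastase and cathepsin G, had no clear signal on any array, and the proteins were not measured. Elane, neutrophil elastase, was at 3.86 in wild type, 3.82 in null 1 and 3.60 in null 2, Ctsg, cathepsin G, at 3.33, 3.42 and 3.14. The other granule genes Prtn3 and Mpo lay between 3.10 and 3.79. These levels are near the array medians. Of the 14 neutrophil markers with a probe set, only S100a8 and S100a9 passed the filter, and both are also made by stressed keratinocytes. S100a9 had 4.81, 6.33 and 8.11 and S100a8 5.69, 6.85 and 8.47. The mean level over all 14 was 3.94 in wild type, 4.17 in null 1 and 4.40 in null 2. S100a8 and S100a9 enter this mean and had the largest rises of the 14 on both null arrays. Ltf, below the filter, went down, at 5.93, 4.70 and 3.44. The markers Camp, at 4.26, 4.84 and 5.38, and Ngp, at 4.08, 4.35 and 4.91, also below the filter, went up. No neutrophil difference is read from these genes or from the mean over the 14.

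Tested markers of stressed epidermis were higher on the arrays where Slpi was higher, though Krt17 by only 0.04 on null 1. Defb3 and Defb4 were below the filter, between 2.67 and 3.28 on every array. All 9 tested of the 12 on that list lay above wild type in both null arrays, beside 38.8% of all tested genes. The 2-fold rule was met by 4, beside 0.225% of all tested genes, led by Krt6b at 3.38 ± 0.78 and Krt16 at 2.94 ± 0.70. S100a9, which met the rule, and Sprr2d were below the filter of 5 in wild type, at 4.81 and 4.79. Both are among the 9 but were tested only through the null arrays, so their side is not read. For this list the mean level over the 12 was 5.88 in wild type, 6.69 in null 1 and 7.70 in null 2. Their part in the Slpi difference was not tested. For the marker lists that follow, the shares over all tested genes are 38.8% above in both null arrays and 26.4% below. Interfollicular keratinocyte markers were more even, with mean levels of 9.74, 9.92 and 9.95 over 12 genes, 4 of 11 tested above wild type in both arrays, 1 below and 6 on either side; involucrin (Ivl) was at 0.46 ± 0.26 and Krt77 at 0.37 ± 0.39. Macrophage markers had means of 6.23, 6.33 and 6.70 over 10 genes, with 7 of 9 tested above wild type in both and 2 on either side, Lyz2 (lysozyme) at 0.65 ± 0.39 and Cd163 at 0.54 ± 0.35. Adipocyte markers had means of 7.50, 7.95 and 8.48 over 9 genes, with 8 of 8 tested above, Retn (resistin) at 1.64 ± 0.69 and Cidec at 1.05 ± 0.48. Mast cell markers had means of 6.24, 6.22 and 6.43 over 8 genes, with 2 of 6 tested above wild type in both arrays and 2 below. Hdc, the histamine-forming enzyme, was at 1.00 ± 0.28 but below the filter of 5 in wild type, and Tpsb2 is given above.

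The genes whose pair of differences lay nearest to that of Slpi, by Euclidean distance on the log2 scale among 8456 tested genes over 3 arrays, were Krt16, Hp, Serpina3n, Krt6b and S100a9. The distances were 0.27 for Krt16, a keratin of wounded epidermis, 0.29 for Hp, haptoglobin, and 0.29 for Serpina3n, whose wild type level near the array median makes its differences and distance uncertain. They were 0.54 for Krt6b, a partner keratin of Krt16, and 0.96 for S100a9. Hp had 7.41 in wild type, 9.64 in null 1 and 10.98 in null 2, and so was above the filter on all 3 arrays. Hp and Serpina3n are also made in liver, and some other genes known from liver stood apart on null 2: Alb, albumin, had 5.97, 4.55 and 8.60, Kng1 2.29, 2.27 and 4.44, Serpinc1 3.34, 3.48 and 4.45 and Pzp 3.17, 3.15 and 4.18. So did Ahsg, at 2.98, 2.71 and 5.53, and Serpina1b, at 3.49, 3.67 and 6.11. Others did not: Serpind1 had 3.40, 3.60 and 3.39 and Fetub 3.08, 3.27 and 3.25. On null 1 Alb was lower than in wild type, and Kng1, Serpinc1 and Pzp were below that array's median of 3.70. The part of a liver-type signal in the Hp and Serpina3n levels of either null array was not tested.

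For Wfdc18 the nearest were Myl4, Actc1, Prr32, Mdk and Krt8. Myl4, an embryonic myosin light chain, lay at a distance of 0.06 and Actc1, cardiac actin, at 0.14. Prr32 was at 0.37, but its null 2 level of 3.48 was below that array's median, so its distance is uncertain. Mdk, the growth factor midkine, was at 0.52 and Krt8, a keratin of simple and glandular epithelia, at 0.57. Krt8 had 6.52 in wild type, 5.60 in null 1 and 4.07 in null 2, and Mdk 8.43, 7.40 and 5.34.

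**Figure D5:**
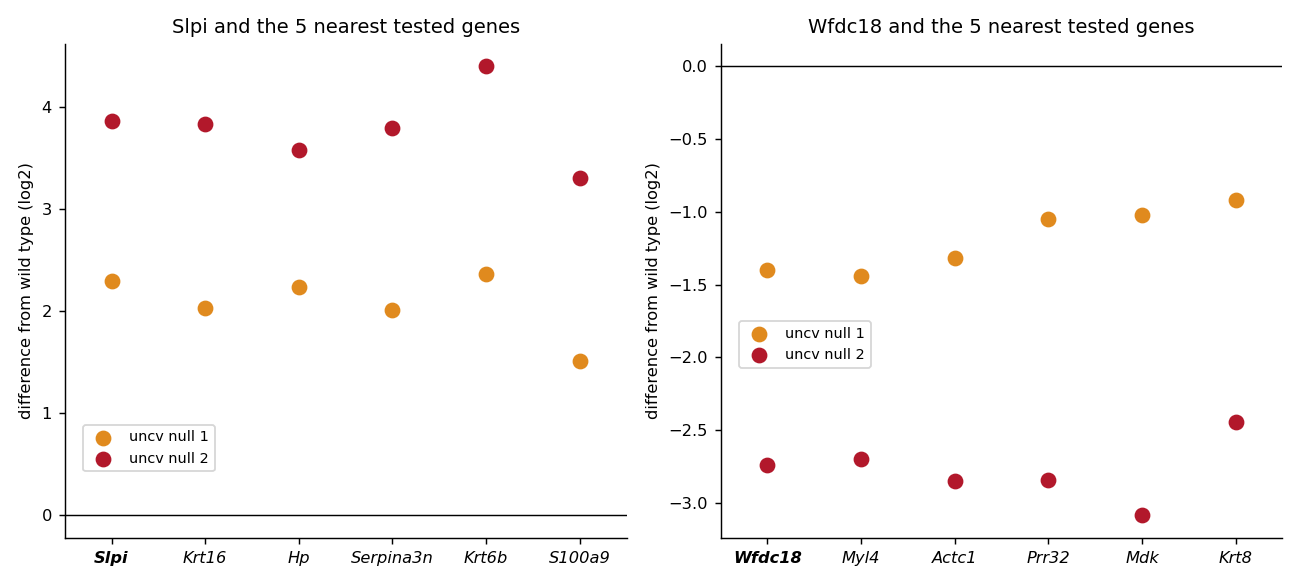
Difference from wild type (log2, vertical axis) on null 1 (orange) and null 2 (red) for Slpi and its 5 nearest tested genes (left) and for Wfdc18 and its 5 nearest (right). The red point is farther from 0 than the orange one for every gene shown, with Slpi at 2.30 and 3.86 and Wfdc18 at -1.40 and -2.74.

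Muscle and gland markers are given beside Wfdc18 for this reason. Of 14 tested skeletal muscle markers, 10 lay below wild type in both null arrays and 2 above. Over all tested genes 26.4% lay below and 38.8% above, and these shares also stand beside the gland and fibroblast counts. The mean level over all 15 muscle markers was 8.77 in wild type, 8.26 in null 1 and 8.00 in null 2. Myh3, embryonic myosin, was at -2.03 ± 0.88 and Tnni1, slow troponin I, at -2.00 ± 0.32. By the 2-fold rule 2 muscle markers were lower and 1 higher, beside 0.296% and 0.225% of all tested genes. The higher one was Actn3, the alpha-actinin of fast fibres, at 4.78 in wild type, 6.10 in null 1 and 7.09 in null 2. Actn3 passed the filter only through the null arrays. Of 12 mammary epithelium markers with a probe set, 5 were tested, with 2 below wild type in both arrays, 1 above and 2 on either side, and the mean level was 4.64, 4.61 and 4.39. The milk protein genes Csn1s1, Csn2, Csn3, Wap and Lalba lay between 3.00 and 3.81 on every array, near the array medians. Elf5, a transcription factor of gland and skin epithelium, was at 5.48, 5.26 and 5.49, and Krt19 at 5.88, 6.02 and 4.84. Fibroblast markers had means of 10.91, 10.88 and 10.62 over 7 genes, with 6 of 7 below wild type in both arrays, Col1a1 at -0.40 ± 0.32, and the exception, Thy1, at 0.50 ± 0.26. The part of these markers in the Wfdc18 difference was not tested.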

How the data were processed

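Total RNA was hybridised to 1-colour arrays, 1 per sample. The authors deposited log2 expression values made with RMA, per the submitters' processing notes. Its version and the genome build were not given in the sources used here. RMA forces arrays to a common distribution, so a shift of all transcripts cannot be seen, and no scanner files or detection calls were used here. Precision is limited by the number of arrays.

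Of 45101 probe sets, 64 controls were kept apart; 34945 of the others named 1 gene and 932 several. A probe set was tested where its log2 values averaged 5 or more (13559, for 8456 genes), and a gene was read at its probe set of highest mean. Differences are uncv null minus wild type, fitted with limma 3.58.1 in R 4.3.3 (lmFit, eBayes, Benjamini-Hochberg over all tested probe sets). There is 1 residual degree of freedom, moderated with 4.75 prior ones, which assumes the same variance for the lone wild type array. The procedure was tested on simulated data. Groups and replicate numbers came from the sample titles.

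The members and gene lists were chosen with earlier results of these data known. Named genes are the members, Rhbdf2, the 4 largest absolute mean differences among other tested genes of each inhibitor or protease list, the 2 largest of each marker list and the 5 nearest to Slpi and to Wfdc18. Genes beyond these (Plau, Lgmn, Ctsl, Spink5, Elane, Ctsg, Prtn3, Mpo, Ngp, Krt14, Krt10, Krt2, Krt17, Defb3, Defb4, Sprr2d, Actn3, Alb, Kng1, Serpinc1, Pzp, Serpind1, Fetub, Elf5, Krt18, Epcam, the milk protein genes, chromosomal neighbours and all genes of the last section) were chosen after their values were seen. Alternatives were other filters, scalings, probe set rules, an intensity trend and leaving out each uncv null array.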

Additional observations from a re-analysis of the deposited data

How the results depend on the processing

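limma called 0 genes under the main setting and under every alternative fitted (no filter, a minimum mean of 7, the mean of probe sets, quantile normalization, median centring and an intensity trend). The counts past the 2-fold rule, 19 higher and 25 lower, were 6 and 5 at a minimum mean of 7, 213 and 157 at 0.5 log2 units, and 38 to 130 and 42 to 164 with 1 uncv null array left out. Without null 1 the counts were 130 and 164, so this array limits them. Serpinb3a was at 0.70 with median centring. Slpi lay between 3.05 and 3.10 and Wfdc18 between -2.10 and -2.07 under both rescalings and the main setting, and the 8 tested members kept their side of wild type on each array. With 1 array left out, a member's value is the other array's, as given above, with no test. Without members, the WAP list's median was 0.53, but -0.033 with no filter; that of clade B serpins, 0.04, was 0.066 to 0.23 with 1 uncv null array left out, and that of cystatins and stefins, 0.16, was 0.17 to 0.23. These settings changed which genes or arrays entered, and no other cause was tested. No paired analysis was possible because there is a single wild type array, so no pairs can be formed. The comparison has a single wild type array, so a deviation of that 1 array would enter every difference.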

Other observations

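Ltf, which encodes the secreted iron-binding protein lactoferrin of glands and neutrophil granules, was below the filter by its mean. It and the other genes of this paragraph were picked after their values were seen. It had log2 levels of 5.93 in wild type, 4.70 in null 1 and 3.44 in null 2. Camp, the cathelicidin gene, also below the filter, had 4.26, 4.84 and 5.38. Lcn2, another secreted defence protein of epithelia, had 3.71 in wild type and 3.80 in null 1 against 5.70 in null 2. Klk10 was at 6.82, 7.21 and 7.57, and the matriptase gene St14 at 7.67, 8.09 and 8.16. Serpinb6c, a further clade B serpin below the filter, had 3.71, 4.36 and 4.91. The liver-type serpin Serpina1b had 3.49 and 3.67 in wild type and null 1 and 6.11 in null 2, and Ahsg, fetuin A, had 2.98, 2.71 and 5.53. For Lcn2, Serpina1b and Ahsg the null 2 array alone stood off the other 2.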
